A study of Mus musculus with 16 samples.

Results

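Expression of 10 genes of the vessel wall and of its growth signals was followed in red gastrocnemius muscle and visceral fat. They are the endothelial identity genes Pecam1, Cdh5, Emcn and Vwf, the receptors Kdr, Flt1 and Tek, and the growth factors Vegfa, Vegfb and Angpt1. They were taken by symbol, as the rows of the deposited count table whose Ensembl identifiers carry these symbols in the GENCODE M21 annotation, and all 10 were found among the 55536 genes of the table. The libraries came from 8 female mice, 4 labelled Cre-Control and 4 labelled Conditional MusMyD88-/-, in which, by the label, MyD88, the adaptor of most Toll-like receptors and of the interleukin-1 receptor, is deleted in muscle. Both tissues of each mouse were sequenced, which gives 16 libraries in 4 groups of 4. Wheel running for 5 weeks was followed in all 8 animals by 8 days of restricted movement in a small cage, so no group without running or without confinement was compared. The sources used here do not give the age, the strain or the promoter that drives Cre. The title of the series asks about fat gain during inactivity in females.

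Endothelial cells form the inner lining of all blood vessels. They hold together through the adhesion proteins Pecam1 and Cdh5 (VE-cadherin), and carry the surface sialomucin Emcn and the stored clotting protein Vwf. Vegfa is secreted by parenchymal cells, binds Kdr, the main signalling receptor for vessel growth, and binds Flt1 with higher affinity but weaker signalling, so that Flt1 can act as a trap for it. Vegfb binds Flt1 and not Kdr, while Angpt1, made mainly by cells around the vessel, activates the endothelial receptor Tek (Tie2) and stabilises vessels. In oxidative muscle the capillary network is dense and responds to exercise, and in fat it must grow with the adipocytes that it feeds.

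Total counts were 15203806 to 21747345 per library in muscle and 13242243 to 19114782 in fat, and single counts of the 10 genes were 158 or higher. Titin took 21.4 to 23.9% of the muscle counts, so in muscle a CPM level, a count scaled to the library's total counts, shares that total with fibre transcripts. Myd88 was at 2.60 ± 0.66 CPM in control and 1.99 ± 0.23 CPM in knockout muscle, and at 16.6 ± 2.61 and 15.4 ± 1.65 CPM in fat (SD, n = 4 each). The muscle ranges, 2.04 to 3.42 and 1.68 to 2.24 CPM, overlapped. One library differed from the others of its tissue, the fat of control mouse 138. Its summed urothelial markers (5 genes) reached 1994 CPM against 10.9 to 31.8 CPM in the other fat libraries, and its smooth muscle markers (5 genes) 20199 CPM against 397 to 1005 CPM. Its adipocyte markers (5 genes) summed to 2004 CPM against 8494 to 11754 CPM. Fat results are therefore also given without it. In muscle, the ribosomal RNA gene CT010467.1 reached 27974 CPM in control mouse 131 and 19833 CPM in control mouse 11. The remaining muscle libraries held 16.8 to 35.2 CPM of it. For muscle, the count of genes above 0 and the median are therefore also given without both mice. In bulk tissue, fewer cells of a type and less RNA per cell cannot be told apart, and this holds for every level below. Endothelial markers were present in all 16 libraries, none of the 10 genes being at 0 in any.

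The levels per length, in CPM per kb of annotated exon, place the genes on one scale within a tissue. The length is the union of all annotated exons of a gene, which can be longer than the transcript expressed. The order of the genes depends on this choice. In muscle Vegfa stood first at 34.2 ± 4.23 CPM per kb (SD, n = 8), above every other gene in all 8 libraries. Cdh5 at 13.5 ± 2.14, Vegfb at 12.2 ± 2.97 and Pecam1 at 12.2 ± 1.17 CPM per kb came next, and neighbours among these overlapped. Tek at 7.83 ± 0.97, Flt1 at 7.51 ± 1.20, Kdr at 5.68 ± 1.17 and Angpt1 at 4.97 ± 0.58 CPM per kb formed the middle of the order, each overlapping its neighbour. Emcn at 2.15 ± 0.24 and Vwf at 1.98 ± 0.34 CPM per kb were lowest, below Angpt1 in all 8 libraries. Vwf, with 16064 exon bases the longest of the 10, and Flt1, with 13504, thus rank lower per length than their CPM alone would place them.

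In fat the same scale gave a different place to the VEGF receptors. Vegfa again stood first, at 59.7 ± 21.9 CPM per kb (SD, n = 8), followed by Cdh5 at 35.1 ± 8.99, Vegfb at 32.4 ± 7.42 and Pecam1 at 28.5 ± 3.30 CPM per kb. Kdr came next at 23.3 ± 6.31 CPM per kb, above Tek at 15.3 ± 2.20 in 7 of 8 libraries. Tek was above Flt1, at 9.54 ± 2.17 CPM per kb, in all 8. Emcn at 6.31 ± 1.03, Angpt1 at 5.64 ± 1.57 and Vwf at 5.63 ± 0.98 CPM per kb closed the order. The ranges of neighbours overlapped throughout. Without mouse 138, Vegfa was at 64.4 ± 18.8, Cdh5 at 38.1 ± 3.42 and Kdr at 25.2 ± 3.61 CPM per kb (SD, n = 7).

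**Figure D1:**
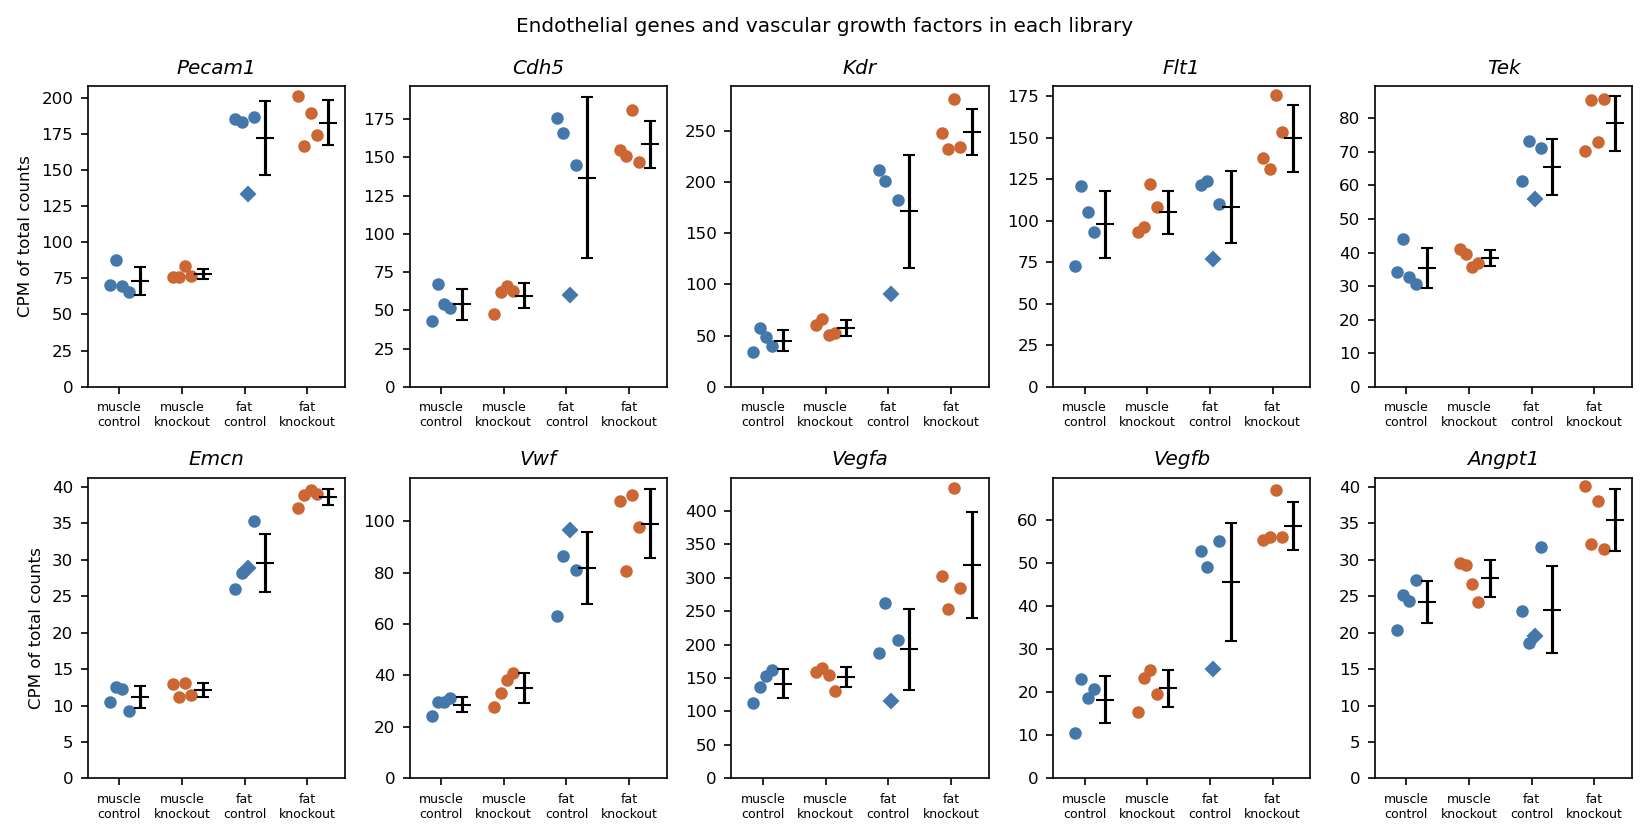
Levels of the 10 genes in CPM of total counts (vertical axes, starting at 0) in control and knockout muscle and fat; each point is a library and the bars are the mean and SD of 4. The fat library of control mouse 138 is drawn as a diamond. It is the lowest fat library for Pecam1, Cdh5, Kdr, Flt1, Tek, Vegfa and Vegfb, and the knockout fat libraries of Emcn, at 37.1 to 39.6 CPM, lie above all control libraries.

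Knockout was first compared with control in muscle, the tissue of the deletion. No gene of the set passed the test there: 0 of 10 had an adjusted p under 0.05 in edgeR's quasi-likelihood test, against 0.0141% of the 14183 genes tested (2 genes), and 0 of 10 had an unadjusted p under 0.05, against 5.04% of all genes. Log2 fold changes, knockout over control, were between 0.02 and 0.28. All 10 were above 0, with a median of 0.060 beside 0.0028 over all genes. The common sign did not survive the omission of libraries: it was above 0 in 6 of 10 genes without control mouse 131 and in 4 of 10 without control mice 131 and 11, when the median was -0.036. In the text that follows, values per mouse are in the order 131, 137, 138 and 11 for controls and 139, 958, 960 and 29 for knockouts.

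Kdr, the receptor through which Vegfa drives vessel growth (ENSMUSG00000062960, GRCm38 chr5:75932827-75978458, minus strand), had the largest value. It was at 34.4, 57.7, 48.8 and 39.7 CPM in the muscle of controls and at 60.3, 66.7, 50.4 and 52.1 CPM in that of knockouts. The groups overlapped, since control 137 was above knockouts 960 and 29. The log2 fold change was 0.28 (SE 0.13, edgeR adjusted p = 0.949). Vwf (ENSMUSG00000001930, chr6:125546774-125686679, plus strand) was at 24.3, 29.5, 29.6 and 31.3 CPM in controls and 27.8, 33.3, 38.2 and 41.0 CPM in knockouts. Here 1 knockout, mouse 139, lay within the control range, and the log2 fold change was 0.22 (SE 0.12, edgeR adjusted p = 0.949). Without 1 mouse it was 0.14 to 0.33.

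The groups of the other 8 genes overlapped in muscle as well. Cdh5 was at 54.0 ± 10.2 and 59.6 ± 8.04 CPM in control and knockout muscle and Pecam1 at 73.3 ± 9.74 and 78.1 ± 3.65 CPM (SD, n = 4 each). Flt1 was at 97.8 ± 20.2 and 104.9 ± 13.2 CPM, and Tek at 35.4 ± 6.02 and 38.4 ± 2.49 CPM. Among the ligands, Vegfa was at 141 ± 21.6 and 152 ± 14.9 CPM, Vegfb at 18.2 ± 5.47 and 20.8 ± 4.30 CPM, and Angpt1 at 24.3 ± 2.89 and 27.5 ± 2.49 CPM (log2 fold change 0.10, SE 0.096). Emcn, the least counted of the set in muscle, was at 11.2 ± 1.55 and 12.1 ± 1.003 CPM. In none of the 10 genes did all 4 knockouts lie above, or all 4 below, the controls, where 3.95% of all genes tested did so upward and 0.317% downward in CPM of total counts. With TMM factors the count was again 0 of 10 both ways, beside 1.78% and 1.59% of all genes. Summed macrophage markers (6 genes) were at 33.4 to 52.7 CPM in control and 51.5 to 69.8 CPM in knockout muscle, and fibroblast markers (5 genes) at 464 to 629 and 564 to 736 CPM, none at 0 in any group. All 6 macrophage and all 5 fibroblast markers lay higher in knockouts (median log2 fold changes 0.45 and 0.24), as did 4 of 5 adipocyte markers (0.38) and the 3 of 5 megakaryocyte and platelet markers that could be tested (0.63). Megakaryocytes and platelets also make Vwf, and their summed markers were at 2.33 to 3.95 CPM in control and 3.90 to 5.48 CPM in knockout muscle, 1 of the 5 being at 0 in all controls. The smooth muscle and erythroid lists lay lower, with 0 of 4 (median -0.25) and 0 of 5 (-0.21) above 0. Lymphatic endothelial markers were higher in 3 of 4 tested (0.19), pericyte markers in 2 of 6 (-0.020) and muscle fibre markers in 1 of 5 (-0.016). None of these markers was called, and their part in the muscle values was not tested.

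In fat, a tissue in which the deletion was not targeted, knockout libraries held more of every one of the 10 transcripts on average, but 0 of 10 passed the test. The share called over all genes was 0.00613% (1 of 16323). The median log2 fold change of the set was 0.39, beside -0.011 over all genes, of which 47.9% were above 0. An unadjusted p under 0.05 was reached by 3 of 10 (Emcn, Angpt1 and Vwf), against 7.99% of all genes. Without control mouse 138, 8 of 10 were above 0, the median was 0.28, 5 of 10 reached an unadjusted p under 0.05 against 16.6% of all genes, and the smallest adjusted p was 0.174.

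Emcn, which coats the luminal surface of capillaries and veins (ENSMUSG00000054690, chr3:137341067-137432185, plus strand), had the smallest unadjusted p of the set in fat. Control fat held 26.0, 28.1, 28.8 and 35.3 CPM and knockout fat 37.1, 38.9, 39.6 and 39.1 CPM. All knockouts were above all controls, control 11 being nearest to them. The log2 fold change was 0.42 (SE 0.12, edgeR unadjusted p = 0.00753, adjusted p = 0.588) and was 0.33 (SE 0.087, adjusted p = 0.174) without mouse 138.

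Angpt1, the activating ligand of Tek (ENSMUSG00000022309, chr15:42424723-42676977, minus strand), was at 22.9, 18.6, 19.5 and 31.8 CPM in control fat and at 40.2, 32.2, 38.0 and 31.5 CPM in knockout fat. Only control 11 reached the knockout range. The log2 fold change was 0.64 (SE 0.22, edgeR unadjusted p = 0.0186, adjusted p = 0.591) and 0.49 (SE 0.18, adjusted p = 0.243) without mouse 138. An antisense gene, Gm17473, shares exon sequence with Angpt1 and held 163 counts over the 16 libraries against 7487 for Angpt1. The sources used here do not say whether the counting used strand.

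Vegfa (ENSMUSG00000023951, chr17:46016993-46032369, minus strand) had the largest fold change of the set in fat. It was at 187, 262, 115 and 207 CPM in controls and 303, 253, 434 and 285 CPM in knockouts. Mouse 138 was lowest and knockout 960 highest, and control 137 lay above knockout 958. The log2 fold change was 0.73 (SE 0.33, edgeR adjusted p = 0.627), and 0.50 (SE 0.21, adjusted p = 0.299) without mouse 138. Vegfb (ENSMUSG00000024962, chr19:6982473-6987651, minus strand), the Flt1 ligand linked to fatty acid handling rather than to sprouting, ranged from 25.4 to 55.0 CPM over the controls and from 55.2 to 66.9 CPM over the knockouts. Its log2 fold change of 0.36 (SE 0.29) was 0.11 (SE 0.10) without mouse 138.

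Both VEGF receptors were highest in knockout fat. Kdr was at 212, 201, 90.7 and 183 CPM in controls and 248, 233, 282 and 235 CPM in knockouts. Flt1, the trap receptor (ENSMUSG00000029648, chr5:147561604-147726011, minus strand), was at 122, 124, 76.9 and 109.9 CPM in controls and 138, 131, 176 and 154 CPM in knockouts. Neither gene's groups overlapped in CPM of total counts, and mouse 138 was the lowest library of both. The log2 fold changes were 0.53 (SE 0.32, edgeR adjusted p = 0.666) for Kdr and 0.47 (SE 0.24, adjusted p = 0.627) for Flt1, and without mouse 138 they were 0.27 (SE 0.12) and 0.28 (SE 0.13). Tek (ENSMUSG00000006386, chr4:94739289-94874976, plus strand) ranged from 55.8 to 73.4 CPM over the controls and from 70.2 to 85.7 CPM over the knockouts, and its groups overlapped (log2 fold change 0.28, SE 0.15, and 0.14, SE 0.074, without mouse 138).

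The junction genes differed least. Cdh5 (ENSMUSG00000031871, chr8:104101625-104144511, plus strand) was at 176, 166, 60.0 and 145 CPM in control fat and 155, 151, 181 and 147 CPM in knockout fat. Mouse 138 alone lay far below the rest, and the log2 fold change turned from 0.19 (SE 0.36) to -0.092 (SE 0.13) without it. Pecam1 (ENSMUSG00000020717, chr11:106654217-106750628, minus strand) was at 185, 183, 133 and 187 CPM in controls and 201, 167, 189 and 174 CPM in knockouts, and turned from 0.098 (SE 0.20) to -0.069 (SE 0.10). Vwf was at 62.9, 86.6, 96.6 and 80.9 CPM in controls and 108, 80.5, 110.3 and 97.6 CPM in knockouts. Unlike these junction genes it was not low in mouse 138, and its log2 fold change was 0.33 with and 0.32 without it (SE 0.14 in both).

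**Figure D2:**
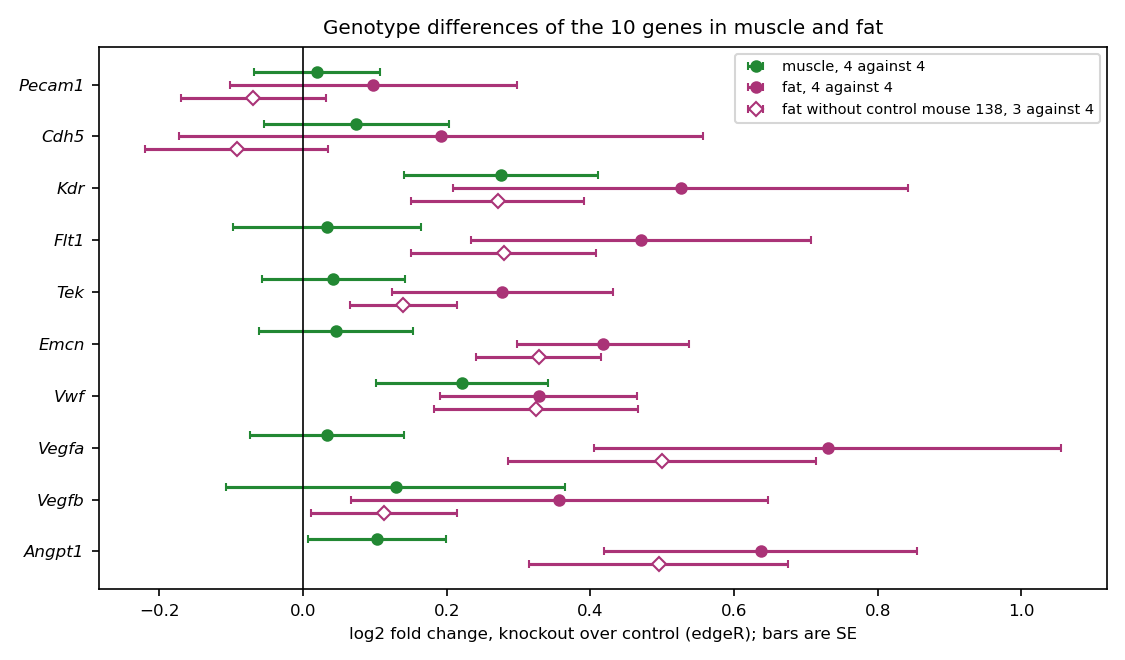
Log2 fold change, knockout over control, of each gene with its SE (horizontal axis) in muscle, in fat, and in fat without control mouse 138 (open diamonds). Fat values of Pecam1 and Cdh5 cross 0 without mouse 138, while Emcn moves from 0.42 to 0.33 and Vwf from 0.33 to 0.32.

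In CPM of total counts, all 4 knockout fat libraries lay above all 4 controls in 4 of 10 genes (Kdr, Flt1, Emcn and Vegfb), against 2.53% of all genes, and below them in 0 of 10, against 2.27%. With the trimmed mean of M values (TMM), the scaling of the edgeR tests, 1 of 10 lay above, Emcn, against 3.36% of all genes. Below the controls lay 0 of 10, against 3.0%. This count with TMM was chosen after seeing the data. Some lists of markers of other cells also lay to one side in knockout fat, and others did not. None of these markers was called, and their part in these values was not tested. With and without mouse 138, 5 of 5 muscle fibre markers lay higher in knockouts (median log2 fold change 0.92, and 1.38 without it), 0 of 6 macrophage markers (-0.20 and -0.33) and 0 of 5 erythroid markers (-0.81 and -1.04). Fibroblast markers were higher in 1 of 5 (-0.61), and in 2 of 5 (-0.29) without mouse 138. Summed levels overlapped between the groups, macrophage markers (6 genes) being at 470 to 704 CPM in control and 329 to 679 CPM in knockout libraries and erythroid markers (5 genes) at 127 to 304 and 97.4 to 188 CPM. The summed level of muscle fibre markers (5 genes, none at 0) ranged from 1484 to 8103 CPM over control libraries and from 1106 to 15957 CPM over knockout libraries, the highest being knockout 139. All 4 lymphatic endothelial markers tested lay lower in knockouts (median log2 fold change -0.71, and -0.24 with 1 of 4 higher without mouse 138), with a summed level between 63.0 and 174 CPM in control libraries and between 44.6 and 88.3 CPM in knockout libraries, and 1 of the 5 listed, Ccl21a, was at 0 in every library of each group. Pericyte markers (6 genes) summed to 629 to 911 CPM in control and 611 to 694 CPM in knockout fat. They were higher in 4 of 6 with and without mouse 138 (median log2 fold changes 0.12 and 0.11). Adipocyte markers were higher in 4 of 5 (0.26), and in 1 of 5 (-0.095) without mouse 138. Smooth muscle markers were higher in 0 of 5 (-2.48), and in 4 of 5 (0.29) without it. Megakaryocyte and platelet markers were higher in 0 of 2 tested (-0.16, and -0.23 without mouse 138).

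The genotype effect in muscle was then set against that in fat in 1 model of all 16 libraries. None of the 10 genes passed the test (0 of 10 called; 0.0% of 17084 genes were called, 7.19% had an unadjusted p under 0.05, and DESeq2 called 11 genes). The difference was below 0, that is smaller in muscle, in all 10. It was -0.36 (SE 0.16, edgeR adjusted p = 0.685) for Emcn, -0.53 (SE 0.25, adjusted p = 0.685) for Angpt1 and -0.69 (SE 0.36, adjusted p = 0.694) for Vegfa. For Flt1 it was -0.43 (SE 0.29), for Kdr -0.24 (SE 0.37), for Tek -0.23 (SE 0.19) and for Vegfb -0.22 (SE 0.39), and it was nearest to 0 in Cdh5 (-0.11, SE 0.41), Vwf (-0.11, SE 0.20) and Pecam1 (-0.072, SE 0.23). Without the fat library of mouse 138, 4 of 10 were above 0 (Pecam1, Cdh5, Kdr and Vegfb), and 3 of all genes were called.

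Muscle and fat themselves differed in which vascular genes they favoured, and this comparison depends on scaling. With TMM the median log2 difference of all genes, muscle over fat, was -0.16, and with total counts and no factors it was -1.36. The TMM factors were 0.61 to 0.68 in muscle and 1.34 to 1.89 in fat. Of all calls, 44.8% were higher in muscle with TMM and 12.2% with no factors. Values are therefore given under both scalings and relative to the median of all genes. A change of scaling shifts all genes by nearly the same amount. Values relative to the median must therefore nearly agree between scalings, and their agreement is not a further test.

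With TMM, 7 of 10 genes were called, against 79.6% of all genes, so that a call by itself does not set the 10 apart. In this scaling 4 were higher in muscle (35.7% of all genes) and 3 lower (44.0%). Angpt1 had the largest difference upward, 1.03 (SE 0.13, edgeR adjusted p = 1.6e-06), although its CPM of total counts, 20.3 to 29.5 in muscle and 18.6 to 40.2 in fat, overlapped. With no factors its log2 difference was -0.16. Relative to the median of all genes the 2 scalings gave 1.19 and 1.20.

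Flt1 and Kdr, receptors for the same ligand, went opposite ways. Flt1 was 0.84 higher in muscle on the log2 scale with TMM (SE 0.15, edgeR adjusted p = 6.4e-05) and 0.33 lower with no factors, which is 1.001 and 1.03 above the median of all genes. Kdr was lower in muscle under both scalings, at -0.86 (SE 0.18, edgeR adjusted p = 0.00054) with TMM and -2.02 with no factors, or -0.70 and -0.66 relative to that median. Without the fat library of mouse 138 the TMM values were 0.75 for Flt1 and -0.99 for Kdr.

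Tek and Vegfa were called higher in muscle with TMM by smaller amounts, 0.23 (SE 0.097, edgeR adjusted p = 0.0416) and 0.41 (SE 0.18, adjusted p = 0.0479), and were -0.96 and -0.76 with no factors. Relative to the median of all genes they were at 0.38 and 0.57 with TMM and at 0.40 and 0.60 with no factors. Leaving out any knockout mouse ended the call of Tek (adjusted p from 0.0557 to 0.122), and leaving out mouse 11, 138, 139, 29 or 958 that of Vegfa (0.0625 to 0.145). With no filter on low counts neither was called (0.221 and 0.153). Emcn and Vwf were lower in muscle, at -0.35 (SE 0.081, edgeR adjusted p = 0.00102) and -0.31 (SE 0.098, adjusted p = 0.00954), and at -1.54 and -1.51 with no factors. The call of Vwf ended without mouse 131 (adjusted p = 0.0529).

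Pecam1 (-0.050, SE 0.11), Cdh5 (-0.21, SE 0.21) and Vegfb (-0.24, SE 0.20) were not called with TMM. Relative to the median of all genes they lay within 0.13 of 0 under both scalings. Without the fat library of mouse 138 Cdh5 and Vegfb were called lower in muscle, both at -0.36 (edgeR adjusted p = 0.00255 and 0.0238). In CPM of total counts, 6 of 10 genes (Pecam1, Kdr, Tek, Emcn, Vwf and Vegfb) were lower in every muscle library than in every fat library, against 66.1% of all genes, and 0 of 10 were higher, against 7.35%.

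**Figure D3:**
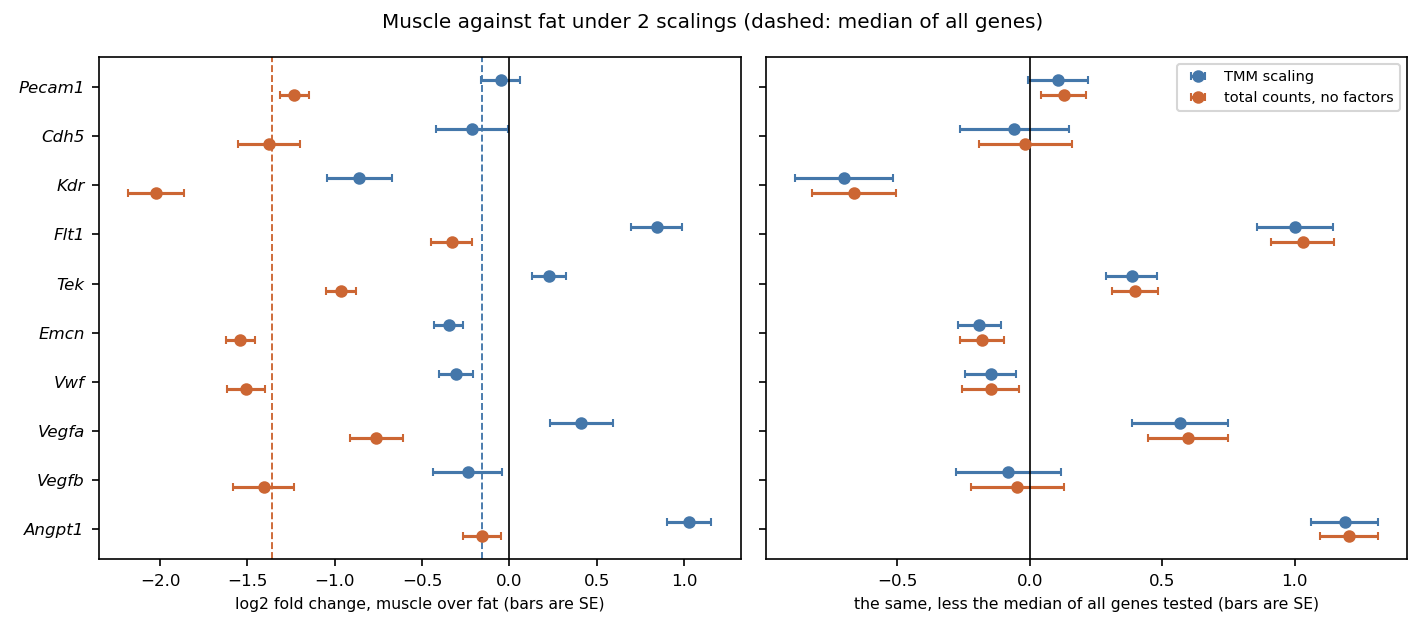
Log2 difference, muscle over fat, of the 10 genes with SE under TMM scaling and with total counts alone (left; dashed lines are the medians of all genes at -0.16 and -1.36), and the same values less those medians (right). On the right Angpt1 and Flt1 lie at the far right and Kdr at the far left. The scalings nearly coincide there because a change of scaling shifts all genes by nearly the same amount.

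Ratios between 2 genes of 1 library do not depend on library scaling. The pair Flt1 and Kdr was chosen after its values were seen, so its ratio is a description. Per kb of exon, muscle held 1.41, 1.40, 1.44 and 1.56 units of Flt1 per unit of Kdr in controls and 1.03, 0.966, 1.62 and 1.39 in knockouts. Fat held 0.384, 0.413, 0.567 and 0.402 in controls and 0.371, 0.376, 0.418 and 0.438 in knockouts. Every muscle library lay above every fat library, and mouse 138 had the highest fat ratio. The mean log2 ratio of muscle over fat within a mouse was 1.67 ± 0.26 (SD, n = 8 mice).

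The promoters of the receptor genes are shown because Kdr and Flt1, on the same chromosome and strand, took opposite places in the tissues, and Tek, the Angpt1 receptor, lay between them. These are the 250 bases upstream of the RefSeq gene start (GRCm38.p6), and RefSeq windows were matched for 6 of the 10 genes. Capitals mark matches to the motifs searched on both strands: CAGGAA and CCGGAAG, bound by ETS family factors, AGATAA, bound by GATA factors, ACGTG, the core bound by hypoxia-inducible factors, and TATAAA, the TATA box (TTCCTG is CAGGAA on the other strand).
Kdr, chr5:75978456-75978705, minus strand: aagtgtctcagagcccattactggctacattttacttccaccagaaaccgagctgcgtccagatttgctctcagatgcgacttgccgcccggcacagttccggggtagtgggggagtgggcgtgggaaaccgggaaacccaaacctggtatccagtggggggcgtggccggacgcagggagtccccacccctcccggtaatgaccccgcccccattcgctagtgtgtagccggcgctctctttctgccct
Flt1, chr5:147726012-147726261, minus strand: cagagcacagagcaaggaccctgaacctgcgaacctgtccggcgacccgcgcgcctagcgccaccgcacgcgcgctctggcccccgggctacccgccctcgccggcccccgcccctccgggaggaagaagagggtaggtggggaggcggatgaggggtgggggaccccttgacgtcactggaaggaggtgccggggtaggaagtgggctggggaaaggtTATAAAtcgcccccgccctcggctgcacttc
Tek, chr4:94739039-94739288, plus strand: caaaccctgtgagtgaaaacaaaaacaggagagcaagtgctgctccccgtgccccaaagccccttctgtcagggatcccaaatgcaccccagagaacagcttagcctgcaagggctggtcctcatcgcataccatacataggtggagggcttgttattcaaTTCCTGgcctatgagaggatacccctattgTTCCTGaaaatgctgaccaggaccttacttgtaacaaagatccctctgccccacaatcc

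The Kdr window held none of the 5 motifs searched, though its bases include GCGTG, which was not searched. The Flt1 window held TATAAA 31 bases before the start, a motif found in 12.4% of the 32851 RefSeq windows, and was rich in GC (70.4%, with 23 CpG, against medians of 52.4% and 6). The Tek window held CAGGAA in 2 places, a motif found in 25.7% of windows, and had 51.2% GC with 2 CpG. Emcn also had 2 matches to CAGGAA, and the first Vegfa window 1, with 1 to AGATAA. The second Vegfa window (chr17:46025164-46025413, minus strand) lies inside the annotated gene (chr17:46016993-46032369), downstream of its annotated start. It held ACGTG once (16.6% of windows), so this match is not upstream of the whole gene. The Vegfb window held none of the 5, and CCGGAAG (6.91% of windows) was in none of the matched windows.

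Angpt1 over its receptor Tek, per kb, was 0.540, 0.517, 0.671 and 0.804 in control and 0.649, 0.671, 0.676 and 0.595 in knockout muscle. In fat it was 0.338, 0.229, 0.316 and 0.404 in controls and 0.518, 0.341, 0.473 and 0.333 in knockouts. The ratio was higher in muscle in 8 of 8 mice, by 0.82 ± 0.30 (SD) on the log2 scale, although the tissues just overlapped where fat of knockout 139 (0.518) met muscle of control 137 (0.517). Vegfa over Vegfb was 2.23 to 4.04 in muscle and 1.33 to 2.43 in fat, higher in muscle in 7 of 8 mice.

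Set against Cdh5, a single endothelial gene that the other endothelial genes did not all follow between libraries, Flt1 and Kdr diverged. Their levels are the same as in the ratio of Flt1 to Kdr. Flt1 was 1.79 ± 0.13 times the Cdh5 level in muscle and 0.906 ± 0.19 times in fat, in CPM (SD, n = 8), with no overlap. Kdr was 0.908 ± 0.17 times Cdh5 in muscle and 1.44 ± 0.18 times in fat, and was lower in muscle in 8 of 8 mice. Angpt1 was 0.463 ± 0.081 times Cdh5 in muscle and 0.210 ± 0.067 times in fat, also without overlap. Vegfb kept nearly the same relation to Cdh5 in both tissues, 0.340 ± 0.049 and 0.359 ± 0.043. In fat, Kdr over Cdh5, singled out after the values were seen, was 1.206, 1.208, 1.511 and 1.262 in controls and 1.5996, 1.539, 1.555 and 1.5992 in knockouts. Every knockout was above every control, with mouse 138 the nearest control. The groups overlapped in fat in every other ratio to Cdh5. The share of all genes whose ratio to Cdh5 separates the groups was not computed.

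**Figure D4:**
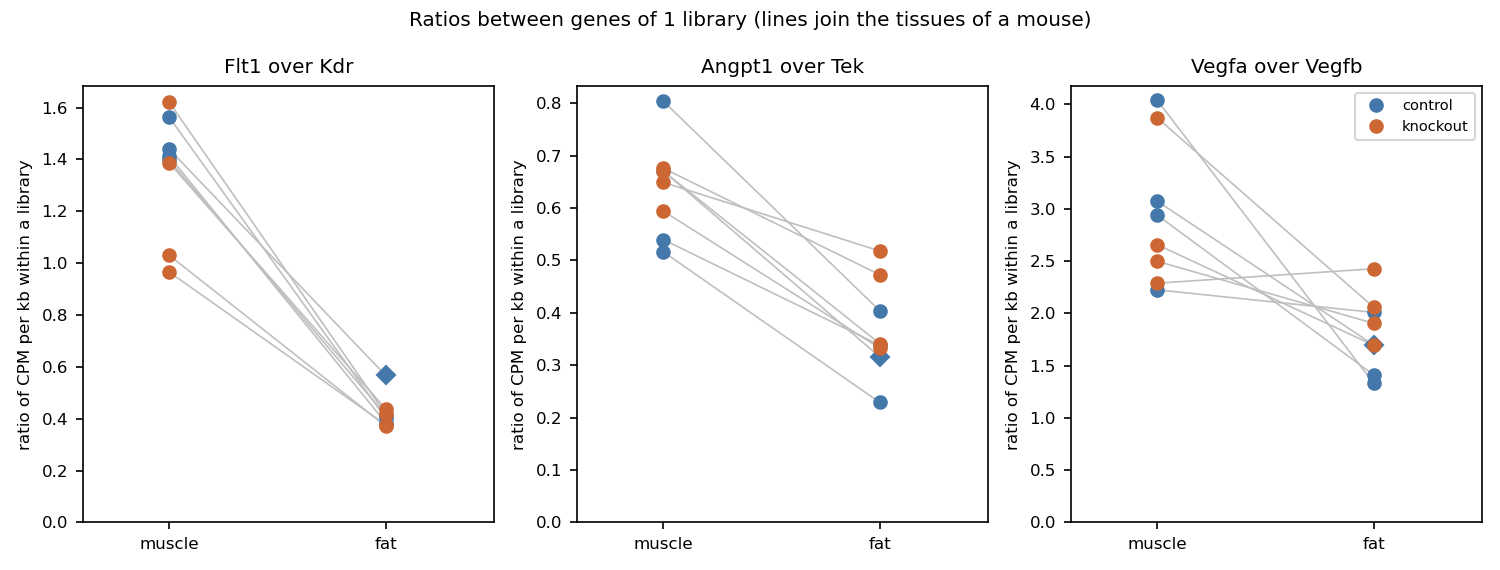
Ratios of Flt1 to Kdr, Angpt1 to Tek and Vegfa to Vegfb in CPM per kb (vertical axes, from 0); each point is a library, lines join the tissues of a mouse and the diamond is the fat of mouse 138. Flt1 over Kdr is 0.966 to 1.62 in muscle and 0.371 to 0.567 in fat, with no overlap.

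A wider list of 73 vascular genes was read beside the 10: VEGF-C and VEGF-D, neuropilins, the angiopoietin and Tie genes, pan-endothelial genes, endothelial transcription factors, capillary, arterial and venous markers, other growth signals and oxygen sensing genes. In muscle 0 of 72 tested were called between genotypes (median log2 fold change 0.040), against 0.0141% of all genes, and 3 of 72 (4.17%) had an unadjusted p under 0.05, against 5.04% of all genes. These 3, given as those with the smallest p and not as changed genes, were Cxcl12, a chemokine of perivascular cells, at 38.5 ± 8.28 and 52.3 ± 4.19 CPM (log2 fold change 0.37, SE 0.12), the apelin receptor Aplnr at 4.28 ± 0.52 and 5.91 ± 0.76 CPM (0.39, SE 0.14), and the arterial Notch target Hey1 at 3.05 ± 1.09 and 4.67 ± 1.01 CPM (0.54, SE 0.23; SD, n = 4 each). Their edgeR adjusted p was 0.907 or higher. With no filter on low counts Cxcl12 alone of the list was called (log2 fold change 0.38, edgeR adjusted p = 0.0168). Without mice 131 and 11 the median of the wider list was -0.037 and 27 of 72 genes were above 0.

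In fat 0 of 71 of the wider list were called (median 0.098, and 0.016 without mouse 138), and 3 of 71 (4.23%) had an unadjusted p under 0.05, against 7.99% of all genes. Of these 3, P-selectin, Selp, which captures leukocytes on veins, was at 3.48 ± 0.37 CPM in controls and 5.14 ± 0.58 in knockouts (log2 fold change 0.59, SE 0.18, edgeR adjusted p = 0.588). Ets1, an ETS transcription factor of endothelial and immune cells, was at 89.9 ± 8.18 and 114 ± 4.68 CPM (0.36, SE 0.15), and Cxcl12 at 122 ± 34.0 and 146 ± 15.3 CPM (0.32, SE 0.14; SD, n = 4 each). The endothelial transcription factors were above 0 in 8 of 8 genes (median 0.26, and 0.052 without mouse 138). The pan-endothelial list was above 0 in 10 of 13 (median 0.16), and in 7 of 13 (median 0.0053) without mouse 138. Genes of oxygen sensing had a median of -0.14, with 4 of 12 above 0, and of -0.088, with 3 of 12 above 0, without mouse 138.

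Between tissues, 54 of 72 wider genes were called with TMM, 11 higher in muscle and 43 lower (75.0% of the list against 79.6% of all genes); with no factors 3 were higher and 68 lower. Over all genes 35.7% were called higher and 44.0% lower with TMM, and 11.1% and 79.9% with no factors. With the mouse as a block, 48 of 72 were called, 9 higher and 39 lower (66.7% of the list, against 78.6% of all genes, 35.6% higher and 43.0% lower). The list median lay 0.32 below that of all genes with TMM and 0.33 below it with no factors. Venous markers were called lower in 5 of 5 under both scalings, and pan-endothelial genes in 9 of 13 with TMM, 7 of 13 with the mouse block and 13 of 13 with no factors. The angiopoietin and Tie list had 2 of 3 called with TMM and 0 of 3 with the block. The largest falls from fat to muscle were in Angptl4, an inhibitor of lipoprotein lipase, at 338 ± 97.9 CPM in fat and 6.85 ± 1.75 in muscle (log2 difference -4.46, SE 0.30), in Hgf, hepatocyte growth factor (-3.56, SE 0.14), and in the adhesion molecule Vcam1 (-2.17, SE 0.13). With no factors these were -5.63, -4.76 and -3.40. Hgf was near the floor in muscle, at 0.68 ± 0.16 CPM, beside 18.5 ± 3.66 CPM in fat (SD, n = 8 each). Oxygen sensing genes were mixed, with 7 of 13 called higher and 4 lower with TMM, and 3 higher and 9 lower with no factors. The largest rises were in Ankrd37 (3.16, SE 0.29), which hypoxia-inducible factor induces, and in the oxygen sensors Egln1 (2.45, SE 0.10) and Egln3 (2.34, SE 0.14), which stayed higher with no factors (1.95, 1.25 and 1.13). The level of Egln1 was 117 ± 17.6 CPM across muscle libraries and 49.2 ± 4.29 CPM across fat libraries (SD, n = 8 each).

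**Figure D5:**
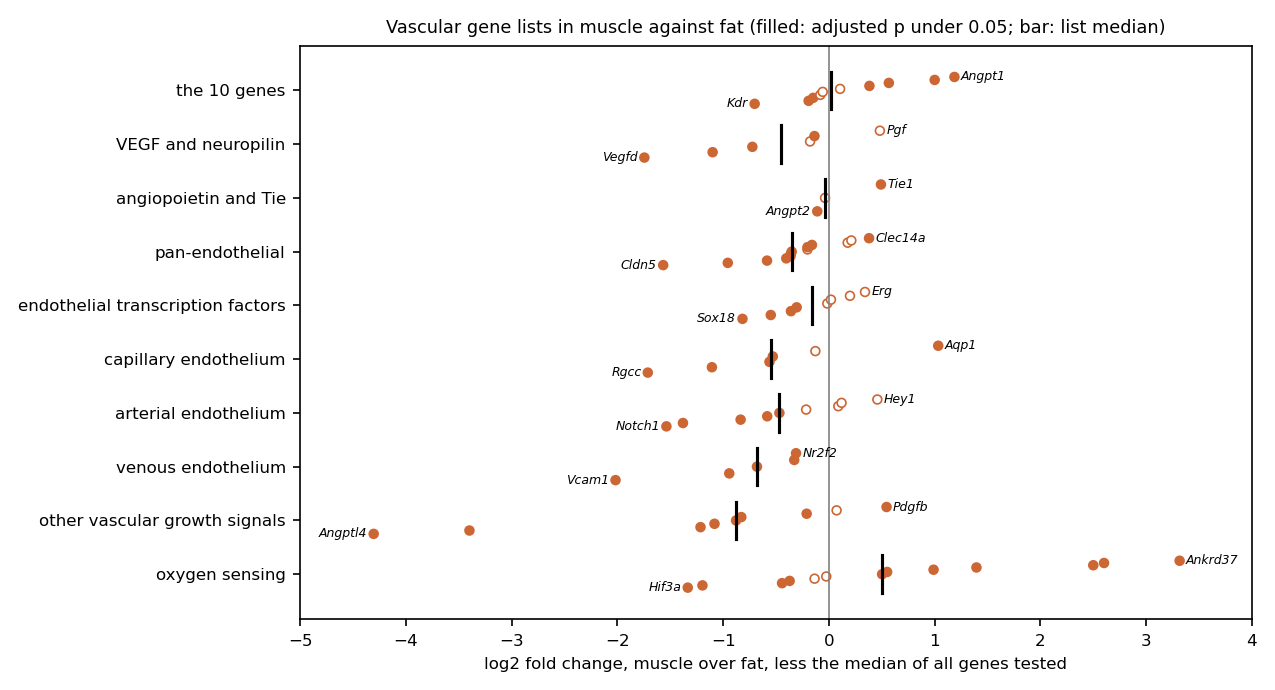
Log2 difference, muscle over fat (TMM), less the median of all genes, for the 10 genes and 9 vascular lists; each point is a gene, filled where the edgeR adjusted p of the difference itself is under 0.05, and the bar is the list median. The 10 genes centre at 0.024, the venous list at -0.68 and the oxygen sensing list at 0.50.

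The genes that followed Cdh5 most closely across the 8 muscle libraries were Ldb1 (Pearson r = 0.99), Dazap2, Cdc42ep1, Bmp6 and Letm1 (r of 0.97 or higher among 8798 genes, on log2(CPM + 0.5)). Of the set, Flt1 and Vegfb were nearest to Cdh5 in muscle (r = 0.90 each), values that 123 and 128 of the 8798 genes reached. Vwf was at 0.75, Pecam1 at 0.70, Kdr at 0.61, Tek and Emcn at 0.41 each, Angpt1 at 0.34 and Vegfa at 0.28. As high an r was held by 705 genes for Vwf, 989 for Pecam1, 1534 for Kdr and 2719 for Tek. For Emcn it was 2697 genes, for Angpt1 3120 and for Vegfa 3488. The muscle values were not recomputed without mouse 131, the lowest muscle library for Cdh5 and Vegfb. In fat the nearest were Tcn2 (r = 0.996), Pnpla2, A530016L24Rik, Epb41l2 and Cdsn (r of 0.99 or higher among 11680 genes). Of the set they were Vegfb (0.95), Kdr (0.93) and Pecam1 (0.90), with 206, 312 and 551 genes at as high an r. The fat values rested on mouse 138: without it Vegfb fell to 0.26, Kdr to 0.39 and Pecam1 to 0.31, and Tcn2 to 0.92. Also without it, Flt1 was at 0.36 and Vegfa at 0.31, while Tek (-0.56), Emcn (-0.43), Angpt1 (-0.26) and Vwf (-0.057) were below 0. Over the remaining 7 libraries 5 other genes were nearest to Cdh5, namely Rbm38, Ubap2, Cdh13, Ppargc1b and D5Ertd579e (r of 0.917 to 0.986). All genes of a library share its depth and tissue makeup, so these correlations are descriptions.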

How the data were processed

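RNA of 8 female mice was measured in red gastrocnemius and in visceral fat (16 libraries, 4 groups of 4, n = 8 libraries per tissue). Ribosomal RNA was removed and stranded total RNA libraries were sequenced on a NovaSeq, per the labels' protocols. The values the authors deposited are raw, unscaled read counts per Ensembl gene. The build GRCm38 and the tools featureCounts 1.6.3, STAR 2.7.0f and DESeq2 1.22.2 are named, with no role or order, per the submitters' processing notes. The sources used here do not give the annotation release, the strand setting or the treatment of reads that map to several places. Each of the 55536 identifiers was found in GENCODE M21, which supplied symbols, coordinates and exon lengths, and 21934 genes had no count.

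Knockout against control was tested separately in muscle and fat with edgeR 4.0.16 in R 4.3.3 (robust quasi-likelihood F test, TMM scaling, filterByExpr), with Benjamini-Hochberg adjustment over all genes tested and a gene called at an adjusted p under 0.05. Muscle against fat and the difference of the genotype effects were fitted over all 16 libraries. The SE of a log2 fold change is its size over the root of its F statistic. Levels are CPM of total counts without TMM factors, per kb of the union of annotated exons where genes are compared. The mouse number in the subject labels pairs muscle with fat. Same-mouse deviations from the group means correlated at -0.021 to 0.046 in controls and 0.085 to 0.198 in knockouts over 17084 genes. No 2 libraries of a group agreed within sampling noise. Nothing in the labels says whether mice of a group were littermates. Within a tissue, p-values judge a difference against the spread between these mice. The main fits over all 16 libraries had no term for the mouse, so they treated both tissues of a mouse as independent.

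The 10 genes, the lists and the alternatives were chosen with earlier results of these data known. The text names all 10 genes in every comparison, the wider vascular genes called between genotypes or else the 3 with the smallest p per tissue, the 3 called with the largest difference in each direction between tissues among those averaging at least 1 CPM, and the 5 genes nearest to Cdh5 per tissue among those averaging at least 5 CPM. Alternatives were RLE scaling, no factors, DESeq2 1.42.0, voom from limma 3.58.1, other filters on low counts (none, or 1 CPM in 4 libraries), a joint fit of the 16 libraries, a replicate block by mouse, and leaving out mice. The procedure was tested on simulated data. Protein sequences were not used here. Angpt4 was too low to be tested in either tissue, and Ankrd37 in fat.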

Additional observations from a re-analysis of the deposited data

Results flagged for a closer look

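In 3 of the 40 groups of 4 libraries formed by the 10 genes, 1 library was so far from the other 3 that its gap to the nearest, divided by the range, exceeded Dixon's 95% critical value, which chance exceeds in about 1 in 20 groups. Pecam1 was at 83.5 CPM in the muscle of knockout mouse 960, above the other knockouts (gap over range 0.900). Pecam1 was at 133 CPM in the fat of control mouse 138, below the other controls (0.932); this is the library with the high urothelial and smooth muscle markers, and their part in the value was not tested. Vegfb was at 66.9 CPM in the fat of knockout mouse 960, above the other knockouts (0.925), and the same library held the highest Vegfa level, 434 CPM.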

How the results depend on the processing

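With edgeR, DESeq2 and limma voom, other scalings and filters, and without each mouse, 0 of the 10 genes were called between genotypes in either tissue or in the difference between tissues. The smallest adjusted p under any alternative was 0.272 in muscle, 0.174 in fat and 0.477 for the difference. Signs were less stable. In muscle, genes above 0 ranged from 6 to 10 without 1 mouse and were 4 without mice 131 and 11, when Pecam1 was at -0.046, Cdh5 at -0.064, Flt1 at -0.14, Tek at -0.042, Emcn at -0.074 and Vegfb at -0.030. Without 1 mouse the lowest and highest log2 fold changes in muscle were -0.023 and 0.096 for Pecam1, -0.0086 and 0.18 for Cdh5, -0.072 and 0.13 for Flt1, -0.014 and 0.15 for Tek, -0.025 and 0.090 for Emcn, -0.047 and 0.12 for Vegfa, and -0.046 and 0.25 for Vegfb. In fat, genes above 0 ranged from 8 to 10, Pecam1 from -0.069 to 0.19 and Cdh5 from -0.092 to 0.39, the low ends without mouse 138. The difference of genotype effects was above 0 in 0 to 4 genes without 1 mouse (Pecam1 -0.16 to 0.066, Cdh5 -0.39 to 0.17, Kdr -0.51 to 0.047, Vwf -0.21 to 0.051, Vegfb -0.53 to 0.027), in 2 with no factors (Pecam1 0.0075, Vwf 0.019) and in 4 without the fat library of mouse 138 (Pecam1 0.099, Cdh5 0.18, Kdr 0.016, Vegfb 0.025).

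Between tissues, no factors left 0 genes above 0 (Flt1 -0.33, Tek -0.96, Vegfa -0.76, Angpt1 -0.16). Without 1 mouse, 5 to 8 of the 10 genes were called, beside 13206 to 14076 of all genes, and Pecam1 ranged from -0.12 to 0.065. With the mouse as replicate block 7 of 10 were called, against 78.6% of all genes. It was 7 of 10 without the block too, with no call of a gene changed. Paired values were -0.81 for Kdr, 0.87 for Flt1 and 1.06 for Angpt1. Of the wider list, 48 genes were called with the block and 54 without it. Of all genes, 2 were called in muscle, 80 without a filter on low counts, 10 with DESeq2, 1 with at least 1 CPM in 4 libraries, and 1 (without mouse 139) to 10 (without mouse 29) when 1 mouse was left out. With no filter, 1 gene of the wider list, Cxcl12, was called in muscle. In fat 1 was called, 72 with DESeq2, 0 with voom, 6 in the fit of all 16 libraries, and 0 to 6 (without mouse 138) when 1 mouse was left out. The difference of genotype effects gave 0, 11 with DESeq2, and 3 without the fat library of mouse 138. The causes were not tested. The largest SE of the set in fat, 0.36 for Cdh5, was 0.13 without mouse 138.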
